A study of Mus musculus with 6 samples.

Results

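The Nuclear factor I (NFI) family was examined by its 4 genes, Nfia, Nfib, Nfic and Nfix, which were taken by name from a table of 32285 genes. All 4 were found. The data were single-cell RNA-Seq libraries of striatal cells enriched with magnetic beads for ACSA2, a surface antigen of astrocytes, from wild type male C57BL/6 mice, of 2 ages: 3 libraries came from pups at postnatal day 3 (P3) and the other 3 from adults aged 3 months (3m). Each preparation pooled the brains of several animals, so the libraries and not single animals were the replicates. The study took P3 astrocytes as immature and 3m astrocytes as mature, and the comparisons below ask how the NFI genes differed between the ages, between cell types and along the lineage that the authors drew between them.

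NFI proteins are transcription factors that bind DNA as dimers through a conserved domain near their amino terminus, at a palindrome of the letters TTGGC and its reverse complement. Nfia and Nfib are known for switching neural progenitors from making neurons to making glia, and Nfia takes part in inducing early astrocyte genes together with Sox9. Nfix is known for restraining neural stem cell proliferation, and Nfic is best known outside the brain, in tooth root formation.

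On the mouse build GRCm38 (GENCODE M21), Nfib lay on the minus strand at chr4:82290173-82705750 and Nfia on the plus strand at chr4:97772734-98118874. Nfix lay on the minus strand at chr8:84699876-84800344 and Nfic on the minus strand at chr10:81396186-81455635. Other annotated genes overlapped each of them, among them the protein-coding E130114P18Rik at the 5-prime end of Nfia and Lyl1 and G430095P16Rik inside Nfix, all on the opposite strand. A UMI (unique molecular identifier) counts one captured RNA end, and capture may differ between genes, so the levels of the 4 members were compared for one gene across cells and not between members.

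Promoter windows were searched for the NFI genes and for the NFI targets described further on. RefSeq (GRCm38.p6) gave windows for 3 of the 4 members, 6 windows in all, and for 8 of 13 genes known as bound or regulated by NFI proteins in neural cells. The member windows did not lie at the ends of the gene spans given above. That of Nfia was outside its span, at chr4:97581693-97581942 (plus strand), and those of Nfic and Nfix were inside theirs. The 250 bases before the start were searched on both strands for TTGGC, overlaps counted, and for TTGGC, 5 bases and GCCAA. The shorter motif was in 2 of the 6 member windows and in 6 of the 8 target windows, against 41.5% of all 32851 windows. Both member windows with it were of Nfix, and the target windows without it were those of Gfap and Slc1a3. The longer motif was in none of these member and target windows and in 0.0365% of all. A link between the motif and the age differences was not tested. The windows printed, with the motif in capitals, are an Nfix window with the motif at chr8:84775829-84776078 (minus strand) and those of the 2 targets that fell most, Fabp7 at chr10:57784673-57784922 (plus strand) and Ezh2 at chr6:47595031-47595280 (minus strand).
Nfix: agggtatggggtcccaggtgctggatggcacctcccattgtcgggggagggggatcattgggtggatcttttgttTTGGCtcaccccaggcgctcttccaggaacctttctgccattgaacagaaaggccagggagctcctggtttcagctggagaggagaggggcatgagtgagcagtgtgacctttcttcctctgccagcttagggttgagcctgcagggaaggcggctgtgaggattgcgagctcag
Fabp7: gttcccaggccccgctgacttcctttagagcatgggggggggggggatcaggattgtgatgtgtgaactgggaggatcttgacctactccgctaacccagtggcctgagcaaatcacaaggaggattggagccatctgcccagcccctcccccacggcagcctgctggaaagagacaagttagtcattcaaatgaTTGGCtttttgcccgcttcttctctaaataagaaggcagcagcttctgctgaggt
Ezh2: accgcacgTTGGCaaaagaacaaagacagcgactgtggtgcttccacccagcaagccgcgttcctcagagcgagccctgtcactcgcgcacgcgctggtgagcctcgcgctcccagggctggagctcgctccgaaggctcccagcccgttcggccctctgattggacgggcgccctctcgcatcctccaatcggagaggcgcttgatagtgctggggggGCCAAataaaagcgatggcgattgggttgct
A match of these letters describes the sequence and does not show that a factor binds there.

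Of 16690 barcodes, 14373 passed the filter of the study and carried its annotation, and the astroglial lineage made up 8874 of the P3 and 1118 of the 3m cells. The P3 libraries held between 32193875 and 37795021 UMIs each and the 3m libraries between 5471573 and 10522151. Astroglial cells had at least 22327104 UMIs per P3 library and at most 1843998 per 3m library, so the 3m levels rest on fewer counts. Across all barcodes there were 53634 UMIs of Nfia, 41468 of Nfib, 9628 of Nfic and 32015 of Nfix. 37 barcode sequences occurred in more than 1 library. All 6 astrocyte markers were present in the astrocytes of both ages, at a summed 5390 UMIs per 1000000 UMIs (CPM) at P3 and 9962 CPM at 3m. Markers of oligodendrocytes summed to 6.20 CPM in P3 astrocytes and to 1371 CPM in 3m astrocytes, and P3 replicate 3 supplied nearly all cells of astroglial sub-clusters 4 and 12. Both are given beside the results they touch.

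In astroglial cells, Nfia, Nfib and Nfix fell between P3 and 3m, and Nfic did not pass the test. Nfix was at 115, 193 and 133 CPM in the 3m libraries, replicates 1 to 3, and at 341, 268 and 364 CPM in the P3 libraries. Nfib was at 271, 253 and 229 CPM at 3m and at 497, 368 and 442 CPM at P3. The ages did not overlap for either gene. Nfia was at 228, 377 and 202 CPM at 3m and at 401, 538 and 693 CPM at P3. The gap for Nfia was narrow, between 3m replicate 2 and P3 replicate 1. Nfic was at 77.8, 61.8 and 52.3 CPM at 3m and at 52.6, 43.9 and 67.0 CPM at P3, and the ages overlapped.

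By edgeR's quasi-likelihood test on UMIs summed per library, with Benjamini-Hochberg adjustment over 13530 genes, the log2 fold change of 3m over P3 was -0.93 ± 0.21 (SE) for Nfix (adjusted p = 0.00251). For Nfib it was -0.60 ± 0.17 (adjusted p = 0.0113) and for Nfia -0.82 ± 0.26 (adjusted p = 0.0197). Nfic had 0.42 ± 0.19 (adjusted p = 0.0760). So 3 of the 4 members passed as lower at an adjusted p of at most 0.05, where 25.7% of all genes tested did, and none was called, that is, also changed at least 2-fold, where 32.1% of all genes were in either direction. The absolute change of Nfix was larger than that of 61.6% of genes tested, and that of Nfia larger than that of 56.4%, so both were near the middle of the age differences in these cells. Signs of RNA quality moved with age: the median mitochondrial share of UMIs was 5.97% to 8.18% in the 3m and 1.27% to 2.47% in the P3 libraries, and Malat1, a nuclear RNA, was at 76624 to 114711 and 27296 to 45536 CPM. With only cells of over 1000 genes and under 5% mitochondrial UMIs, Nfia (-0.72, adjusted p = 0.0696) and Nfib (-0.60, 0.0765) did not pass, and 12 astroglial cells were left in 3m replicate 1. Leaving out any single library kept Nfia lower at 3m, but not always past the threshold. It no longer passed when 3m replicate 1 (-0.75, adjusted p = 0.0649) or 3m replicate 3 (-0.70, 0.0949) was left out, nor without P3 replicate 2 (-0.75, 0.0581) or without P3 replicate 3 (-0.61, 0.0858), and it was called without 3m replicate 2 (-1.21). Without that same library Nfix was called too (-1.24), and Nfib missed the threshold without 3m replicate 3 (-0.60, adjusted p = 0.0512). Without P3 replicate 3, Nfic passed as higher (0.60, adjusted p = 0.0278).

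**Figure D1:**
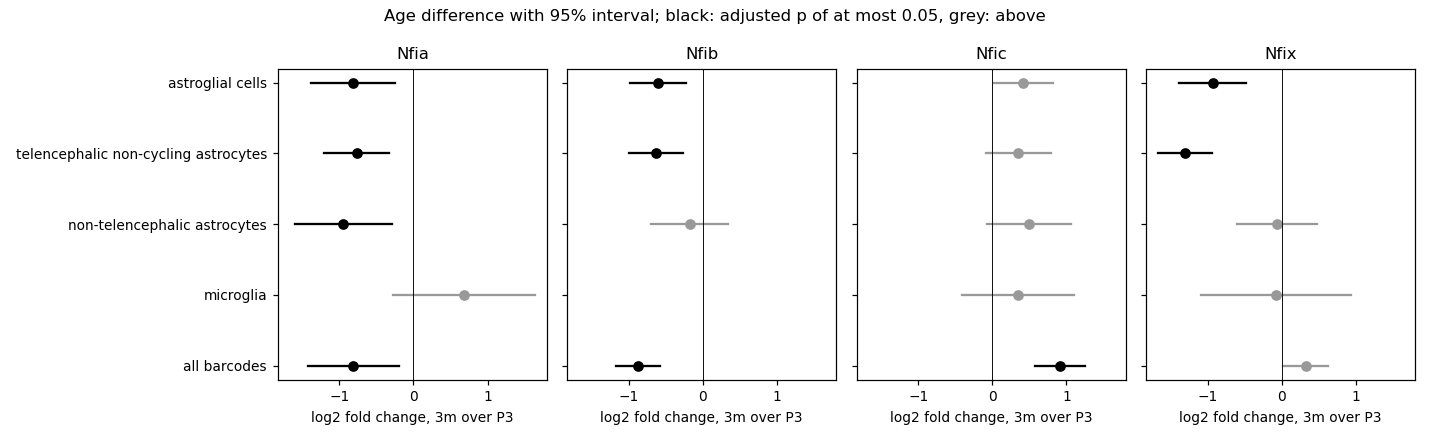
Log2 fold change of 3m over P3 with its 95% interval for each NFI gene (panels) in 5 sets of cells (rows), black where the adjusted p was at most 0.05 and grey where it was above. Nfix is at -1.30 in telencephalic and at -0.06 in non-telencephalic astrocytes, and Nfib could not be tested in microglia.

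Detection of the genes in single cells moved in the same direction. In cells thinned to 2000 UMIs, which left out 212 cells at 3m and 1113 at P3 as too shallow, a UMI of Nfix was found in 24.4% ± 5.91 (SD, n = 3 libraries) of 3m and 46.6% ± 5.45 of P3 astroglial cells. The shares were 40.2% ± 4.34 and 55.1% ± 5.82 for Nfib, and 37.9% ± 7.59 and 62.5% ± 8.48 for Nfia. The ages did not overlap for these 3 genes, and each gave the smallest p that an exact permutation test of 3 against 3 libraries allows (two-sided, p = 0.1). How many of all genes separate the ages in this way was not counted. In the fit of astroglial cells 48.9% of all genes passed in either direction. The shares come from the same UMIs as the levels above. For Nfic the shares were 10.9% ± 3.91 and 10.7% ± 2.59 (exact permutation p = 1). In microglia, which carried few UMIs of Nfib, 0% to 3.70% of cells per library had one (0 of 16 cells, in the smallest library, allows a share of up to 18.8%), below the astroglial shares, whereas for Nfic the microglial range of 4.65% to 22.2% covered the astroglial one.

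The share of each member in all NFI UMIs was computed from the same UMIs as the levels above. The 4 members summed to 731 ± 139 CPM at 3m and 1358 ± 184 CPM at P3 (SD, n = 3). A share can thus rise because the other members fell, and the shares are no separate result. Nfic took 8.90% ± 2.16 (SD, n = 3) of all NFI UMIs in 3m astroglial cells and 3.98% ± 0.345 in P3 astroglial cells, with no overlap (exact permutation p = 0.1, the smallest possible). Nfix took 16.6%, 21.8% and 21.6% in the 3m libraries and 26.4%, 22.0% and 23.2% in the P3 libraries (exact permutation p = 0.1), a gap of under 1 percentage point between the nearest libraries. The shares of Nfia, 36.1% and 39.8%, and of Nfib, 35.0% and 32.3%, overlapped between the ages (exact permutation p = 0.8 and 0.7).

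The fall of Nfix differed between 2 sets of astrocytes, here named telencephalic and non-telencephalic. The telencephalic set comprised sub-clusters 0, 1, 2, 9 and 11 at P3 and 7 and 14 at 3m. The non-telencephalic set comprised sub-clusters 3, 4, 5, 10, 12 and 15 at P3 and 13 and 16 at 3m. The paper proposes that the non-telencephalic set may come from adjacent brain regions. It found sub-clusters 1, 9 and 11, similar to 0, among telencephalic cells of a reference atlas. Sub-clusters 0, 2, 7 and 14 lay on its main lineage, and placing 2, 7 and 14 in the telencephalic set was a choice made here. In telencephalic astrocytes Nfix was at 114, 120 and 113 CPM in the 3m libraries and at 342, 276 and 369 CPM in the P3 libraries. In non-telencephalic astrocytes it was at 130, 275 and 243 CPM at 3m and at 331, 249 and 366 CPM at P3. At P3 the regions were close within each library. At 3m the non-telencephalic cells of replicates 2 and 3 stood well above the telencephalic ones, while replicate 1 had 17 such cells with 8 UMIs of Nfix.

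Nfix was called in telencephalic astrocytes, with a log2 fold change of -1.30 ± 0.17 (edgeR adjusted p = 1.95e-06, 12335 genes, 14.3% of them called lower). Its change in non-telencephalic astrocytes was -0.06 ± 0.27 (adjusted p = 0.878, 95% interval -0.61 to 0.48), where 18.7% of 8822 genes passed as lower. It depended on the scaling and on single libraries: with library totals alone it was -0.41, where the median of all genes was -0.43, and it was 0.093 without 3m replicate 1. The difference of these differences, tested in 1 fit with library as a block, was -1.15 ± 0.20 (adjusted p = 7.8e-05), and 8.23% of 10181 genes were called in this direction. Without 3m replicate 2, which held 261 of the 328 non-telencephalic 3m cells, it was -0.87 (adjusted p = 0.0399). Thinned to the smallest total, it was -1.36 and did not pass (adjusted p = 0.0651).

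Oligodendrocyte RNA moved with this result. The 6 oligodendrocyte markers summed to 23362, 3540 and 2852 CPM in the non-telencephalic 3m sums of replicates 1 to 3 and to 201, 353 and 310 CPM in the telencephalic ones, and Nfix is high in oligodendrocytes (described further on). At least 3 UMIs over Mbp, Mobp, Mog and Mag were found in 189 of 328 non-telencephalic and in 69 of 790 telencephalic 3m cells. Without these cells, an alternative chosen after seeing the data, replicate 1 had no non-telencephalic cells left, Nfix was at 244 and 186 CPM in the other two non-telencephalic sums and at 112 to 124 CPM in the telencephalic ones, and the difference of differences was -0.95 (edgeR adjusted p = 0.00139). Median depth at 3m was 2736 UMIs per non-telencephalic and 3982 per telencephalic cell, and its part in the result was not tested beyond the thinning.

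The other members showed no such difference past the threshold. In telencephalic astrocytes Nfia (-0.76 ± 0.21, edgeR adjusted p = 0.00476) and Nfib (-0.63 ± 0.17, adjusted p = 0.00476) fell, where 24.2% of genes passed as lower, and Nfic had 0.35 ± 0.21 (adjusted p = 0.182). In non-telencephalic astrocytes Nfia fell (-0.95 ± 0.32, adjusted p = 0.0191), but not past the threshold without 3m replicate 3 (-0.68, 0.174). Leaving out sub-clusters 4 and 12, an alternative chosen after seeing the data, took its level in P3 replicate 3 from 1034 to 780 CPM. The P3 mean went from 751 ± 269 to 666 ± 151 CPM (SD). In the same astrocytes Nfib had -0.18 ± 0.26 (adjusted p = 0.617) and Nfic 0.50 ± 0.28 (adjusted p = 0.163). The differences between the regions were 0.35 ± 0.22 for Nfia (adjusted p = 0.292), -0.39 ± 0.19 for Nfib (0.160) and -0.30 ± 0.29 for Nfic (0.516). Their 95% intervals, -0.11 to 0.81, -0.79 to 0.01 and -0.89 to 0.29, do not show that the regions were alike.

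**Figure D2:**
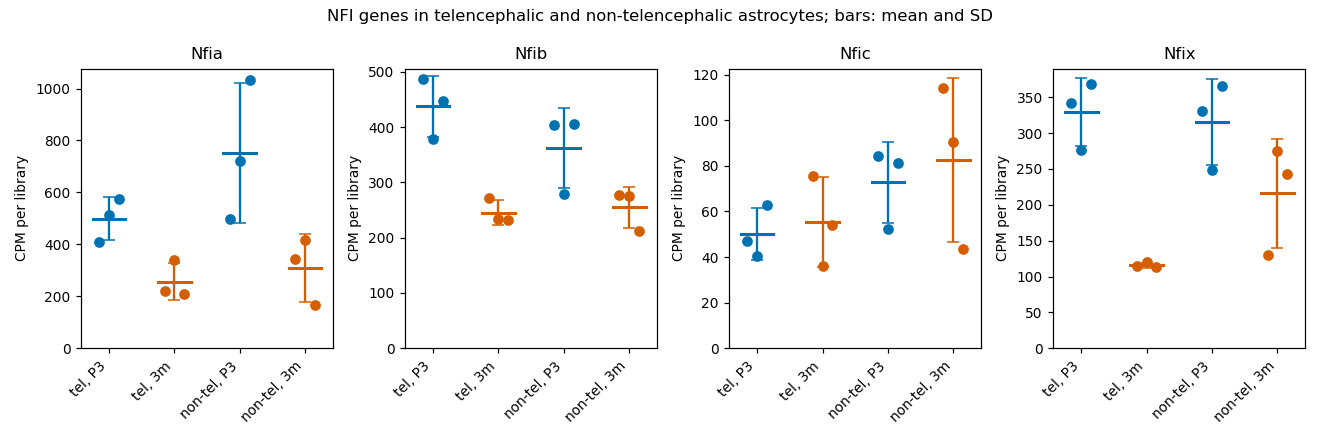
CPM of each NFI gene per library (points) in telencephalic (tel) and non-telencephalic (non-tel) astrocytes at P3 (blue) and 3m (orange), with the mean and SD. Nfix at 3m sits between 113 and 120 CPM in all 3 telencephalic sums and at 130, 243 and 275 CPM in the non-telencephalic ones.

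Among the astroglial sub-clusters, which the authors made from the expression of these same cells, levels are given without a test. Nfix was between 295 and 365 CPM (mean over libraries of at least 10 cells) in every P3 sub-cluster and lower in the telencephalic 3m sub-clusters, at 111 ± 10.3 CPM (SD, n = 3) in sub-cluster 7 and at 114 CPM in sub-cluster 14, which came almost wholly from 3m replicate 1. Non-telencephalic 3m sub-cluster 13 was at 266 ± 14.5 CPM (n = 2) and sub-cluster 16 at 153 ± 76.9 CPM (n = 3). Sub-cluster 13 thus lay nearer the P3 sub-clusters, and the libraries of sub-cluster 16 spread widely. Its oligodendrocyte markers summed to 15985 CPM over all libraries, against 1348 CPM in sub-cluster 13 and 329 CPM in the 3m cells of sub-cluster 7.

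Nfia stood out in sub-clusters 4 and 12, at 2244 and 1630 CPM in P3 replicate 3, against means of 424 to 740 CPM in the other P3 sub-clusters. The 12 cells of sub-cluster 4 in P3 replicate 2 were at 685 CPM, within that range, so the high level is known from 1 library. P3 replicate 3 supplied 719 of 734 P3 cells of sub-cluster 4 and 273 of 284 cells of sub-cluster 12, and their median depth was 1048 and 986 UMIs per cell, against 4738 to 16710 in the other P3 sub-clusters. Per cell, Nfia had 3.23 UMIs in sub-cluster 4 and 2.20 in sub-cluster 12, fewer than the 4.51 in sub-cluster 0. So the CPM was higher while the number of captured molecules was lower. Cycling markers summed to 517 and 405 CPM in sub-clusters 4 and 12, against 9.56 CPM in sub-cluster 0, and pericyte and endothelial markers to 1474 and 489 CPM in sub-cluster 12, against 40.7 and 2.18 CPM in sub-cluster 0. The part of depth and of these cell types in the result was not tested. Over all cells of the same sub-clusters Nfib was at 588 and 523 CPM, Nfic at 67.6 and 60.2 CPM and Nfix at 394 and 318 CPM. Without both sub-clusters, an alternative chosen after seeing the data, the age difference of Nfia in astroglial cells was -0.75 (edgeR adjusted p = 0.0249).

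**Figure D3:**
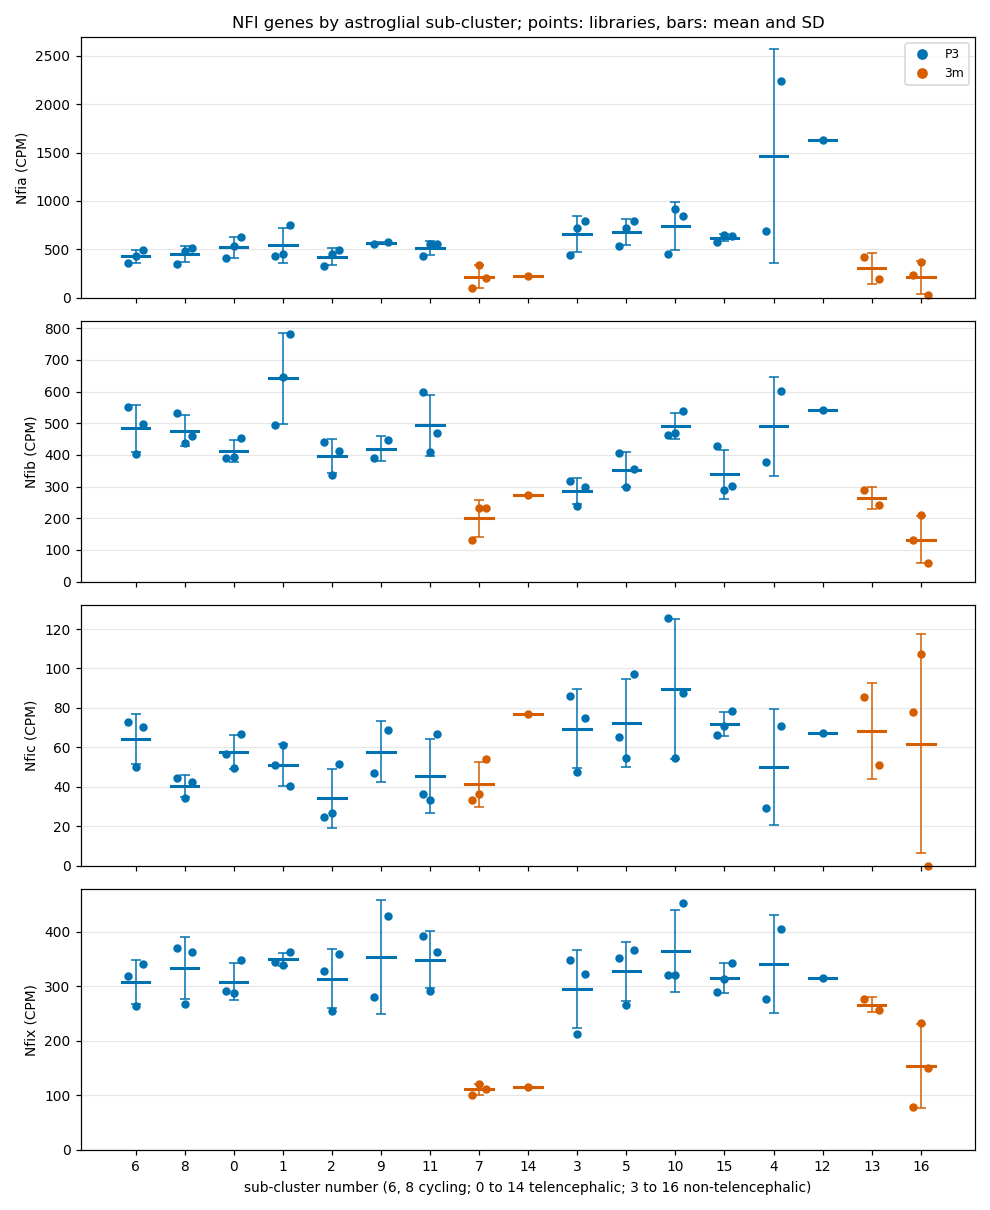
CPM of each NFI gene per library (points) in the astroglial sub-clusters at P3 (blue) and 3m (orange), with the mean and SD where there was more than 1 library of at least 10 cells. Nfix is lowest in 3m sub-clusters 7 and 14, and Nfia is highest in P3 sub-clusters 4 and 12.

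Along pseudotime, the order that the authors computed from cycling P3 cells towards 3m astrocytes, bins 2 to 14 held P3 cells, with 2, 1 and 1 cells from 3m in bins 11, 13 and 14, and bins 16 to 19 held 3m cells, so position and age could hardly be told apart. Both ages met in bin 15. There Nfix had 3 UMIs in 22 cells from 3m (pooled 101 CPM, exact Poisson 95% interval 20.8 to 294) and 20 UMIs in 9 cells from P3 (424 CPM, 259 to 655). These intervals overlapped, which does not show that the ages were alike, and a difference was not tested. Nfix stayed between 264 and 363 CPM (mean over libraries) in bins 2 to 14, and was at 194 ± 76.9, 109 ± 18.3 and 120 ± 15.1 CPM (SD, n = 3) in bins 16, 17 and 18. Nfib reached 532 ± 54.2 CPM in bin 6 and was at 390 ± 44.1 CPM in bin 10 and 245 ± 40.1 CPM in bin 18. The libraries of Nfib in bins 6 and 10 did not overlap, so its level already varied among the P3 bins, and those of bin 18 lay below both. Every library of Nfix in bins 17 and 18 lay below every library in bins 2 to 14. Nfia was at 340 ± 107 CPM in bin 10, 588 ± 206 CPM in bin 13 and 541 ± 102 CPM in bin 14, the last bins in which all P3 libraries had at least 10 cells, and at 214 ± 53.0 CPM in bin 18. Its libraries in bin 10 (217.8 to 413.7 CPM) lay below those in bin 13 (414.2 to 815.0 CPM) by a narrow gap. Nfic ran between 31.3 and 71.2 CPM in bins 2 to 14 and between 25.6 and 54.8 CPM in bins 16 to 18, so the ranges overlapped.

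**Figure D4:**
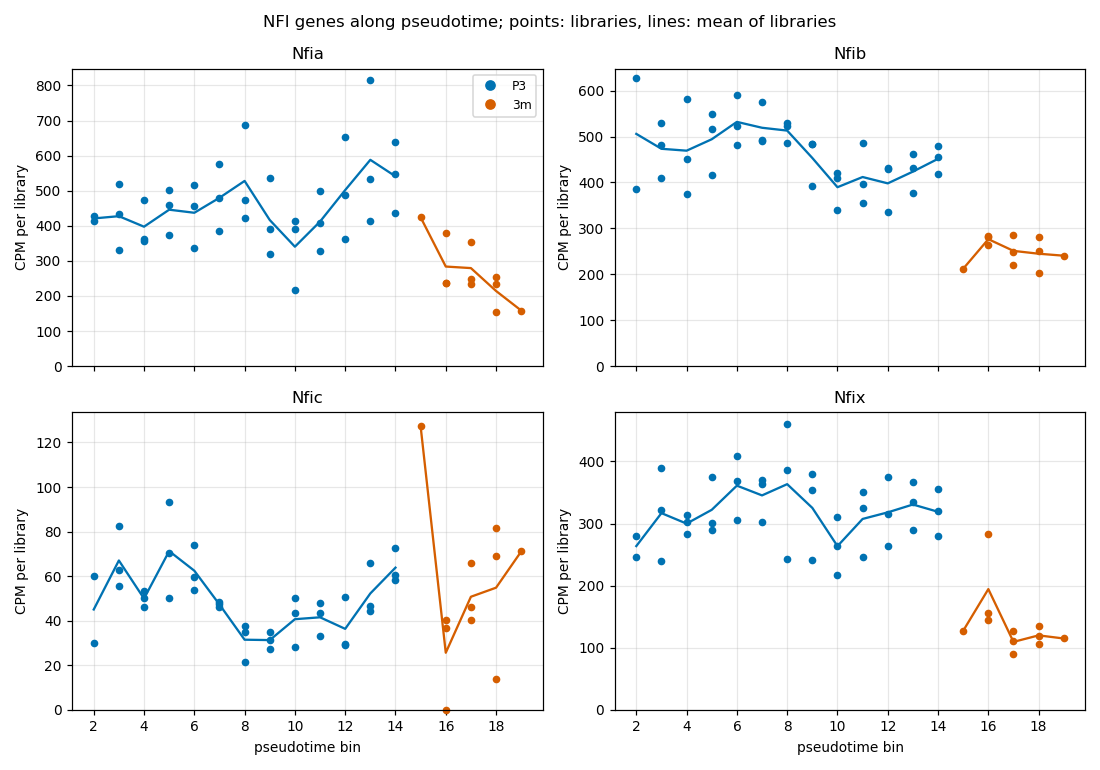
CPM of each NFI gene per library (points) by pseudotime bin, with lines through the mean of the libraries, at P3 (blue) and 3m (orange), for libraries with at least 10 cells in a bin. Nfix runs at 264 to 363 CPM on average through bin 14 and at 109 to 120 CPM in bins 17 and 18.

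Cycling and non-cycling cells at P3 differed by little in Nfia and Nfib. Among P3 astroglial cells, those with a UMI in at least 2 of Mki67, Top2a and Cdk1 were set against the rest within each library. Nfia was at 361, 448 and 549 CPM in the cycling cells and at 416, 573 and 742 CPM in the non-cycling cells of replicates 1 to 3, lower in cycling cells in 3 of 3 libraries. Nfib was at 544, 409 and 475 CPM in the cycling cells and at 478, 352 and 431 CPM in the others, higher in 3 of 3. With library as a block, the log2 fold change of cycling over non-cycling was -0.24 ± 0.06 for Nfia (edgeR adjusted p = 0.00193) and 0.27 ± 0.05 for Nfib (adjusted p = 0.000298). In this comparison 61.8% of 13306 genes passed and 17% were called, and no member was called. Nfic had 0.10 ± 0.08 (adjusted p = 0.272) and Nfix 0.04 ± 0.05 (adjusted p = 0.541). Median depth was 14781 UMIs per cycling and 6685 per non-cycling cell, and astrocyte markers summed to 2432 CPM in cycling and 5467 CPM in non-cycling cells. The cells also lay in different sub-clusters, and the part of these in the result was not tested.

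Outside the astroglial lineage, the members had different ranges. Among the classes with at least 10 cells in 3 libraries, Nfix had its highest mean in oligodendrocytes, the myelin-forming cells, which were annotated at 3m only, at 385, 376 and 350 CPM in replicates 1 to 3 (370 ± 18.3, SD, n = 3). These levels lay above the astroglial cells of the same library in 3 of 3 libraries and overlapped those of P3 astrocytes. Cluster LOW_23, which reached 10 cells in 1 library per age, was at 371 CPM at P3 and 283 CPM at 3m, and its markers of multiciliated cells summed to 5278 and 7035 CPM. Nfic was also higher in oligodendrocytes, at 135 ± 11.7 CPM against 64.0 ± 12.9 CPM in 3m astroglial cells. Nfib, at 123 ± 14.9 CPM against 251 ± 21.3 CPM, and Nfia, at 207 ± 59.9 CPM against 269 ± 94.8 CPM, were lower in oligodendrocytes than in the astroglial cells of the same library in 3 of 3 libraries. Oligodendrocytes held 76.8% to 90.5% of the Nfix UMIs of annotated 3m cells per library, and 57.5% to 70.6% of all their UMIs. P3 oligodendrocyte precursors, a stage before, had Nfix at 173 ± 9.91 CPM, Nfia at 306 ± 70.1 CPM and Nfib at 257 ± 31.0 CPM.

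Endothelial cells, which line the vessels, fell into several clusters with unlike levels. In the 3m endothelial cluster END_17 Nfic was at 209 ± 11.8 CPM (SD, n = 3), the highest mean among classes with 3 libraries. It did not overlap with oligodendrocytes, the next in order, or with the 144 CPM of LOW_23 at 3m. The 16 pericytes at 3m had 10 UMIs of Nfic (pooled 206 CPM, exact Poisson interval 98.7 to 379), a similar level. Markers were mixed in END_17 too, with endothelial markers at 7496 CPM, pericyte markers at 6418 CPM and red blood cell markers at 30331 CPM. Their part in its Nfic level was not tested. Nfix was at 58.4 ± 20.3 CPM in END_17 and at 11.0 ± 1.05 CPM in the P3 cluster END_7, where Nfic was at 118 ± 13.9 CPM. The P3 cluster END_13 had less Nfic (56.3 ± 34.3 CPM) and more Nfix (78.2 ± 31.7 CPM) than END_7. Its median depth was 1362 UMIs per cell, against 26510 in END_7, and 282 of its 339 P3 cells came from P3 replicate 3. Astrocyte markers summed to 1009 CPM in END_13 and 159 CPM in END_7, and endothelial markers to 1850 and 4043 CPM. The part of these in the difference was not tested. Cluster END_12, called endothelial by the authors, had Nfia at 1598 CPM over all its cells. Of its 349 cells 346 came from P3 replicate 3, and their median depth was 1251 UMIs. Its marker sums were mixed, with red blood cell markers at 82998 CPM, astrocyte markers at 3381 CPM, endothelial markers at 1139 CPM and pericyte markers at 947 CPM, so its markers do not single out endothelial cells.

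Microglia, the immune cells of the brain, had little Nfib, at 53.4, 6.07 and 41.4 CPM in the P3 libraries and 19.8, 0 and 0 CPM at 3m, where a count of 0 allows up to 29.8 and 56.2 CPM (counting error only). The gene was not tested there, for too few counts. None of the other 3 members passed, where 11.6% of 2679 genes did, with log2 fold changes of 0.68 ± 0.45 for Nfia (edgeR adjusted p = 0.369), 0.35 ± 0.36 for Nfic (0.587) and -0.08 ± 0.47 for Nfix (0.950). Pericytes and oligodendrocyte precursors had under 10 cells in each 3m library and were not tested. P3 pericytes had Nfib at 81.5 ± 10.7 CPM and Nfix at 32.0 ± 11.0 CPM. P3 neurons, 53 cells in all, had the highest mean of Nfib, at 503 ± 286 CPM, but 328 CPM when pooled, and their libraries ran from 174 to 692 CPM, a range that covered P3 astrocytes.

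**Figure D5:**
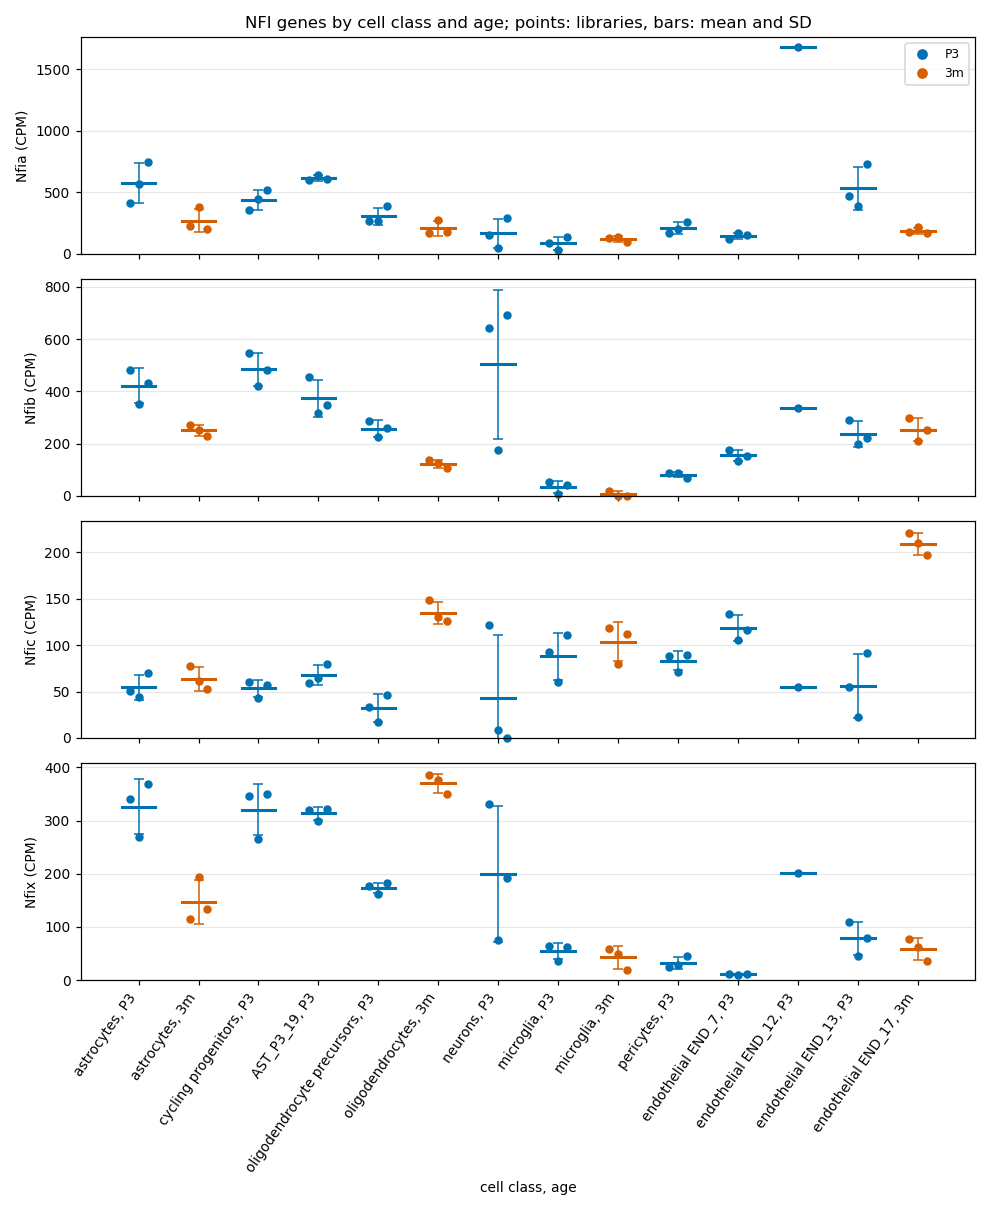
CPM of each NFI gene per library (points) by cell class at P3 (blue) and 3m (orange), with the mean and SD of libraries with at least 10 cells; clusters labelled LOW are not drawn. Oligodendrocytes at 3m sit at 350 to 385 CPM of Nfix against 115 to 193 CPM in 3m astrocytes, and END_17 has the highest Nfic of the classes drawn.

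Pooling all barcodes gave other age differences than the astroglial cells. Nfix was at 265, 294 and 243 CPM in the 3m and 244, 225 and 265 CPM in the P3 libraries, and the ages overlapped. Its log2 fold change was 0.32 ± 0.13 (edgeR adjusted p = 0.0664), opposite in sign to the -0.93 of astroglial cells. Nfic rose by 0.91 ± 0.15 (adjusted p = 0.000782), Nfib fell (-0.88 ± 0.13, adjusted p = 0.000499) and Nfia fell (-0.81 ± 0.27, adjusted p = 0.0291), where 56.5% of 15407 genes passed. Fewer cells of a type and less RNA per cell cannot be told apart in such sums. Nfia did not pass when 3m replicate 1 (-0.73, adjusted p = 0.0817) or 3m replicate 3 (-0.70, 0.104) was left out, nor without P3 replicate 2 (-0.74, 0.0764) or without P3 replicate 3 (-0.64, 0.104).

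Of 13 genes known as bound or regulated by NFI proteins in neural cells, 12 were tested in astroglial cells. Of these, 1 passed as higher and 6 as lower, where 23.3% of all genes passed as higher and 25.7% as lower. Their median log2 fold change was -0.58, against -0.04 over all genes. The list was not split by whether NFI proteins raise or lower a gene, and a link with the NFI levels was not tested. Called as lower were 5 of the 12, where 16.3% of all genes tested were: Fabp7, a fatty acid binding protein of radial glia and immature astrocytes (-6.22 ± 0.40, edgeR adjusted p = 8.1e-08), Ezh2, a histone methyltransferase (-3.21 ± 0.20, 6.28e-08), Efnb1, an ephrin ligand (-1.99 ± 0.25, 2.55e-05), Hes1, an effector of Notch signalling (-1.59 ± 0.19, 2.11e-05), and Apcdd1, an inhibitor of Wnt signalling (-1.21 ± 0.30, 0.0046). Fabp7 was at 20990 ± 3070 CPM at P3 and 248 ± 84.2 CPM at 3m (SD, n = 3). Slc1a3, the astrocyte glutamate transporter, was the 1 that rose (0.57 ± 0.21, adjusted p = 0.0403). Gfap, an intermediate filament of astrocytes, had -0.08 ± 0.43 (adjusted p = 0.893) and Mmd2 0.29 ± 0.18 (0.200).

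Of 17 regulators and partner factors of gliogenesis, 16 were tested, with a median of -0.25. Of these, 6 passed as lower, where 25.7% of all genes did, and none as higher, where 23.3% did. The 3 of 16 that were called fell, near the 16.3% of all genes called as lower, and the count was 5 without 3m replicate 2 or with scaling by library totals alone. They were Atf3, a stress-response factor (973 UMIs at P3 and 3 at 3m, these in 1 library, a rate 18.7 times as high at P3 with an exact binomial 95% interval of 6.39 to 90.9 for counting error only, edgeR adjusted p = 0.000293), Olig2 (log2 fold change -3.19 ± 0.35, 8.51e-06) and Olig1 (-2.46 ± 0.28, 1.19e-05), factors of the oligodendrocyte lineage. The shared gene of both lists, Sox9, which works with Nfia, had -0.28 ± 0.22 (adjusted p = 0.306).

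Over 23 clusters of at least 50 cells, each pooled over libraries, the genes most like each member among 7506 compared were, by Pearson's r of log2(CPM + 10), Nipsnap2 (0.92), Spry2 (0.92) and Cdkn1b (0.90) for Nfia, Kbtbd11 (0.87), Zc3h7b (0.86) and Rhbdd2 (0.85) for Nfib, Zbtb7a (0.94), Dnm2 (0.93) and Ilrun (0.91) for Nfic, and Fez1 (0.95), Fam171b (0.94) and Syt11 (0.94) for Nfix. The points share libraries and depth. Nipsnap2 was highest in END_12, which came almost wholly from P3 replicate 3, and Spry2 and Cdkn1b in the cluster that the authors named AST_P3_4. Of the pairs of members, Nfia and Nfib (0.72) and Nfib and Nfix (0.70) had the highest r, and Nfic and Nfix (-0.18) the lowest.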

How the data were processed

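Single-cell RNA-Seq (10x Chromium, UMI) was measured in 3 P3 and 3 3m libraries of striatal cells. The deposited values are UMI counts per gene and barcode: the authors aligned reads to mm10 with Cell Ranger and merged the matrices without normalization. A second deposited table, with scores for pseudotime, gave clusters, astroglial sub-clusters, pseudotime and bins of the cells kept by the authors, those with over 500 genes and under 10% mitochondrial UMIs, and was used as given. The processing notes of the submitters name Seurat 3.1.1. No columns of per-sample values went unused.

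UMIs were summed per library and set of cells, since cells are not replicates, and scaled to CPM (per 1000000 UMIs). edgeR 4.0.16 (R 4.3.3; TMM, filterByExpr, quasi-likelihood test) compared 3m with P3, two-sided, with Benjamini-Hochberg adjustment over all genes tested. Genes with adjusted p values up to 0.05 passed, and those with a log2 fold change of 1 or more in either direction as well were called. Sums needed at least 10 cells in regions and rare types. In data simulated for the astroglial comparison, over 13530 genes, 54.1% of genes changed by 1 on the log2 scale and 86.3% of those changed by 2 were recovered. The simulation held only 98 genes changed by 1 and 95 changed by 2, with the same spread for all genes. In the data 48.9% of genes passed, so these rates do not give the power of the fit on the data. The labels do not say whether the libraries came from separate litters, so p-values measure only the spread between libraries. Doublets were not removed, apart from the alternative that left out cells with oligodendrocyte UMIs. Intervals of fitted fold changes cover the spread between libraries. Intervals of UMIs pooled over libraries, and floors, cover counting error only. Named genes were the members, the genes called in each list, up to 4 others of the first list and the 3 genes most like each member. The members and lists were chosen with earlier results of these data known. Alternatives are given with the closing observations.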

Additional observations from a re-analysis of the deposited data

Results flagged for a closer look

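The age difference of Nfix differed between telencephalic and non-telencephalic astrocytes, by -1.15 on the log2 scale in a test of the difference itself (edgeR adjusted p = 7.8e-05). Nfix was lower at 3m in telencephalic astrocytes (115 ± 3.70 CPM at 3m and 329 ± 47.7 CPM at P3, SD, n = 3) than in non-telencephalic ones (216 ± 75.9 CPM at 3m and 315 ± 60.2 CPM at P3). The oligodendrocyte markers that moved with it are given in the report. With groups of 3 libraries, single libraries that stand apart were not looked for by test.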

How the results depend on the processing

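In 389 cases an alternative kept the direction and the side of the threshold, or the size, of the main value. It lost a pass 17 times, gained one 7 times, turned the sign 14 times and moved the size 8 times. Of those chosen after seeing the data, 32 kept it, 1 lost and 1 gained a pass. Scaling by library totals alone moved the median of all genes in astroglial cells to -0.24 (log2) and the higher share of called genes from 49.3% to 38.6%. That share went from 51.9% to 40.1% in telencephalic, from 51.1% to 29.6% in non-telencephalic astrocytes and from 66.1% to 52% in microglia. Under it, 5 genes of the gliogenesis list were called in place of 3, Nfix had -0.41 in non-telencephalic astrocytes (median of all genes -0.43) and its cycling difference reversed (-0.057), as it did with no filter (-0.0074). Depth limits the 3m values. Thinned to the smallest total, 2716 genes were called in astroglial cells against 4344 unthinned, 2325 against 3657 in telencephalic and 402 against 2603 in non-telencephalic astrocytes, 235 against 1739 for the difference between regions (40% of them higher, against 51.8%) and 111 against 271 in microglia, with fewer genes tested in each. Microglial calls were 513 with no filter (39% higher), 125 without 3m replicate 1 and 159 without 3m replicate 2, and non-telencephalic calls 1664 without 3m replicate 2.

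With thinning, Nfic passed in telencephalic astrocytes (0.67), Nfia did not in non-telencephalic ones (-0.79) and Nfix did not for the difference between regions (-1.36). The stricter cell filter (over 1000 genes, under 5% mitochondrial UMIs), which left 12 astroglial cells in 3m replicate 1, gave -0.72 for Nfia, -0.60 for Nfib and -0.00032 for Nfic in astroglial cells, and -0.66 for Nfib and -0.23 for Nfic in telencephalic ones, none of which passed. It left too few cells to fit non-telencephalic astrocytes or the difference between regions. Without cells with oligodendrocyte UMIs Nfia had -0.97 in non-telencephalic astrocytes and did not pass, and without sub-clusters 4 and 12 the regional difference of Nfib passed (-0.47); both were chosen after seeing the data. Over all barcodes Nfix passed with DESeq2 1.42.0 (0.29), thinned (0.38) and among barcodes past the filter of the study (0.41). In these results the cause was not tested.

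Shares of cells with a UMI differed by -35.9 (Nfia), -29.6 (Nfib), -12.0 (Nfic) and -41.6 (Nfix) percentage points without thinning, and thinned to 1000 UMIs by -14.0 for Nfix and -0.0061 for Nfic. The Nfix share of NFI UMIs differed by -7.71 points in telencephalic astrocytes alone. As a mean over cells, Nfib in oligodendrocytes minus astroglial cells was -116 CPM.

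Same-numbered libraries deviated together with r of 0.206, 0.0993 and 0.039 in astroglial cells, and 3m replicate 2 correlated best with another number (r of 0.142 with P3 replicate 3), so the numbers were not taken as pairs. With the replicate block Nfic passed in astroglial cells (0.43, edgeR adjusted p = 0.0345) and Nfix over all barcodes (0.32, adjusted p = 0.0401). Between regions, the library was the block instead. Without the library block, the cycling differences of Nfia (-0.26) and Nfib (0.27) did not pass.

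Leaving out 1 library at a time gave, for 3m over P3 in astroglial cells, -1.21 to -0.61 for Nfia, -0.69 to -0.48 for Nfib, 0.24 to 0.60 for Nfic and 3 to 5 called gliogenesis genes (5 without 3m replicate 2). In non-telencephalic astrocytes it gave -1.55 to -0.68 for Nfia, -0.0019 (without 3m replicate 2) to 0.72 for Nfic and -0.39 to 0.093 (without 3m replicate 1) for Nfix. It gave -0.67 to 0.55 (without 3m replicate 2) for the regional difference of Nfic, -0.40 to 0.12 (without 3m replicate 3) for Nfix in microglia, -1.09 to -0.64 for Nfia over all barcodes, and -1.46 to 2.36 percentage points for the share of cells with Nfic. Pericytes and oligodendrocyte precursors could never be fitted.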
